A study of Saccharomyces cerevisiae with 23 samples.

Results

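The bodies of very long genes are the stretches of coding sequence that lie farthest from any gene start in the compact yeast genome. They were taken here as nuclear protein-coding genes of at least 5000 bp in the R64 annotation, with no tRNA gene within 2 kb and with the open reading frames of Ty elements left out. Of 6002 nuclear coding genes, 117 were long enough, 40 of these were Ty open reading frames, and 11 of the rest had a tRNA gene within 2 kb, which left 66 genes. The body of each gene was counted from 500 bp after its start codon to its end, 401 kb in all. Among the 66 genes, 23 are essential for growth, 30 are dispensable, 9 are subtelomeric Y' helicase genes and 4 (BEM2, BLM10, MYO1 and NTE1) were given no call. The shortest members were MLP2 and NTE1 at 5040 bp, and the longest genes just outside were RPA190 at 4995 bp and YBT1 at 4986 bp.

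Both libraries came from the haploid strain BY4741 (MATa his3Δ1 leu2Δ0 ura3Δ0 met15Δ0) carrying the plasmid pJEF2365, 1 library after 24 h in 2% galactose and 1 after 24 h in 2% dextrose. Both cultures had been precultured in 2% raffinose with 0.1% dextrose, and both were afterwards grown for 24 h in dextrose and for 24 h, repeated once, in dextrose with 1 mg/mL 5-FOA, which kills cells with a working URA3 gene. The labels disagree on whether the induction medium lacked uracil. The other 21 samples of the series are nucleosome maps and were not analysed here.

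Ty1 is a retrotransposon of budding yeast that copies its RNA into DNA and inserts it elsewhere in the genome, with a strong known preference for the DNA upstream of genes transcribed by RNA polymerase III, such as tRNA genes. Coding sequence far from such genes is known as a poor target. A haploid cell has a single copy of each gene, so an insertion deep inside an essential gene is usually lethal, while one inside a dispensable gene is tolerated. Giant genes of yeast include scaffolds and machines such as the ribosome assembly ATPase REA1, the dynein motor DYN1, the PI3-kinase-like kinases, fatty acid synthase and core spliceosome proteins.

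A site was a distinct chromosome, strand and 5′ end among the deposited read intervals. The galactose library held 152129 nuclear sites and the dextrose library 11208. Sites were sorted by the length of their interval: 96 bases, 50 to 95 bases, or at most 49 bases, and a position reached by intervals of several lengths counts once in each. Each medium has a single library, so no spread between replicates could be measured and nothing was tested, and the exact Poisson, binomial or Clopper-Pearson 95% intervals in brackets cover counting error only.

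Sites were thinly spread over the long genes in galactose, and the smaller dextrose library held fewer. Counts were not scaled for depth. Galactose had 6.00 times the sites of dextrose in the long genes, against 13.6 times in the whole library. The 66 bodies held 1721 sites in galactose, or 4.29 per kb (4.09 to 4.50), and 287 in dextrose, or 0.716 per kb. In galactose 350 sites came from 96-base intervals (0.873 per kb, 0.784 to 0.969), 1370 from 50 to 95-base intervals (3.42 per kb, 3.24 to 3.60) and 39 from intervals of at most 49 bases (0.0973 per kb, 0.0692 to 0.133). In dextrose 19 sites came from 96-base intervals (0.0474 per kb, 0.0285 to 0.0740), 264 from 50 to 95-base intervals (0.658 per kb, 0.581 to 0.743) and 5 from the shortest class (0.0125 per kb, 0.00405 to 0.0291). The 50 to 95-base densities depended on how sites were counted: with at least 2 reads a position they were 0.835 per kb in galactose and 0.0299 in dextrose, and without intervals of 54, 55, 78 and 79 bases 2.85 and 0.262. Intervals longer than 96 bases numbered 1 in galactose and 0 in dextrose.

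The 9 Y' helicase genes, the YRF1 family and its relatives YIL177C and YJL225C, held 0 sites of any length in 45.2 kb in both libraries. The 95% interval reached up to 0.0816 per kb in each. These genes are near-identical copies at chromosome ends. No deposited interval had a mapping score under 30, and reads that fit several copies equally well usually score lower; the part of this in the zeros was not tested. Without them the 57 other long genes had 0.984 sites per kb (0.883 to 1.09) of the 96-base class and 3.85 per kb (3.65 to 4.06) of the 50 to 95-base class in galactose. In dextrose the same 57 genes had 0.0534 sites per kb of the 96-base class and 0.742 per kb of the 50 to 95-base class.

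Each of these 57 genes held at least 1 site of both main classes in galactose. As 57 of 66 members, that stood beside 73.4% of all 3160 genes tested for the 96-base class and 89.7% for the 50 to 95-base class. In dextrose 16 members held a 96-base site, beside 8.64% of all genes tested, and 56 held a 50 to 95-base site, beside 53.5%. A longer body has more room for a site, so these shares follow gene length as well as density. The exception in dextrose outside the Y' genes was MYO1, the heavy chain of the cytokinetic myosin, with 0 sites in its body and a 95% interval up to 0.698 per kb.

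Counted by 5′ ends, essential and dispensable genes did not differ in sites per kb beyond counting error, in either medium or main length class. In galactose the 23 essential genes held 146 sites from 96-base intervals in 143 kb, or 1.02 per kb (0.864 to 1.20), and the 30 dispensable genes held 188 in 191 kb, or 0.983 per kb (0.847 to 1.13). The essential over dispensable ratio was 1.04, with a 95% interval from 0.833 to 1.30. This interval treats sites as independent and leaves out spread between genes. In 500 bp windows of the long genes outside the Y' family, the count of these sites had a variance of 1.24 times its mean. The interval may therefore be too narrow, and a somewhat larger difference in either direction, a deficit in the essential genes included, was not excluded. Single essential genes ran from 0.416 to 2.48 per kb with a median of 0.968, and single dispensable genes from 0.186 to 2.73 per kb with a median of 0.869, so the sets overlapped almost completely. Leaving out each gene in turn moved the ratio between 0.980, when FAS1 was left out, and 1.09, when FKS1 was left out.

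For the 50 to 95-base class in galactose the essential genes held 572 sites, 4.01 per kb, and the dispensable genes 722, 3.77 per kb, a ratio of 1.06 (0.950 to 1.19). Counted by 3′ ends or by reads in place of sites this ratio was 1.11, with a lower bound of 1.01 both times. These counts are nearly the same, with 1880 distinct 3′ ends among 1882 intervals in the long genes. Reads that share a 5′ end may not be independent. In 500 bp windows of the essential genes the site count of this class had a variance of 1.44 times its mean. The intervals for this class may therefore also be too narrow. In dextrose the essential genes held 104 such sites, 0.729 per kb, and the dispensable genes 152, 0.794 per kb, a ratio of 0.917 (0.708 to 1.19). The 96-base class in dextrose had too few sites to separate the sets, with 7 in essential and 10 in dispensable genes and a ratio of 0.939 (0.303 to 2.73).

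**Figure D1:**
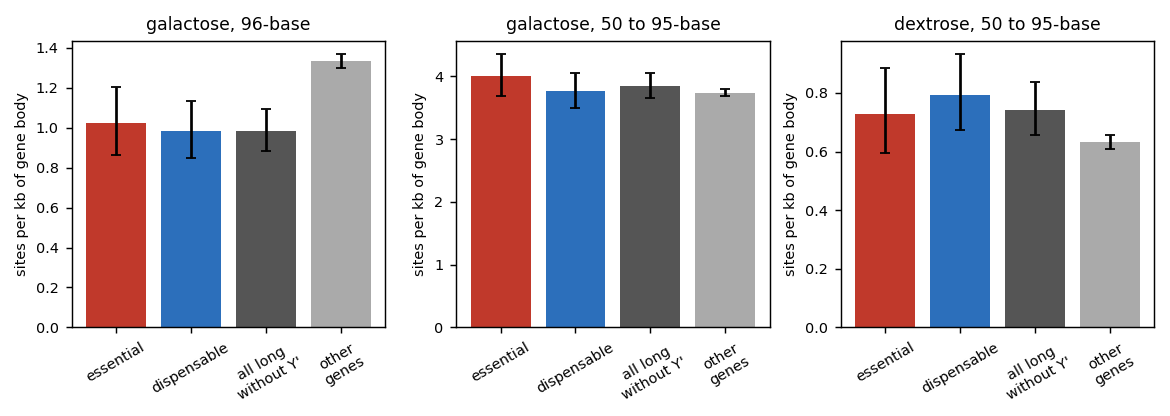
Sites per kb of gene body in 3 combinations of medium and interval length, for essential long genes (23), dispensable long genes (30), all long genes outside the Y' family (57) and other genes of at least 1000 bp (3094). Bars are pooled densities with exact Poisson 95% intervals; essential and dispensable bars overlap in each panel, and the long genes lie below other genes in the 96-base panel, 0.984 against 1.33 per kb.

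REA1 (YLR106C, also called MDN1; chromosome XII, 349006 to 363738, minus strand) encodes the dynein-related ATPase that strips assembly factors from the precursor of the large ribosomal subunit, and it is essential and the longest member at 14733 bp. DYN1 (YKR054C; chromosome XI, 535647 to 547925, minus strand) encodes the heavy chain of cytoplasmic dynein, which positions the spindle, and is dispensable. REA1 held 17 sites from 96-base intervals in galactose, 1.19 per kb (0.696 to 1.91), against 5 in DYN1, 0.424 per kb (0.138 to 0.991). The ratio was 2.81 and its interval, 0.996 to 9.75, just included 1. In the 50 to 95-base class REA1 had 58 sites, 4.08 per kb, and DYN1 had 52, 4.41 per kb, a ratio of 0.923 (0.624 to 1.37).

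The 96-base sites of REA1 lay at 856, 1553, 1586, 1805, 3394, 4273, 5411, 6026, 6157, 6825, 7236, 7238, 9130, 11030, 12708, 13068 and 14708 bp from the first base of the start codon, 10 of them in the sense and 7 in the antisense orientation of the read. They span nearly the whole gene, and the longest stretch between neighbours was 1900 bp. Those of DYN1 lay at 1566, 1974, 7867, 11080 and 11599 bp, 1 sense and 4 antisense, with 5893 bp between the second and the third. In dextrose REA1 had 2 sites from 96-base intervals, at 1269 and 12707 bp, while DYN1 had 0, and the 50 to 95-base class gave 9 sites in REA1 and 10 in DYN1.

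**Figure D2:**
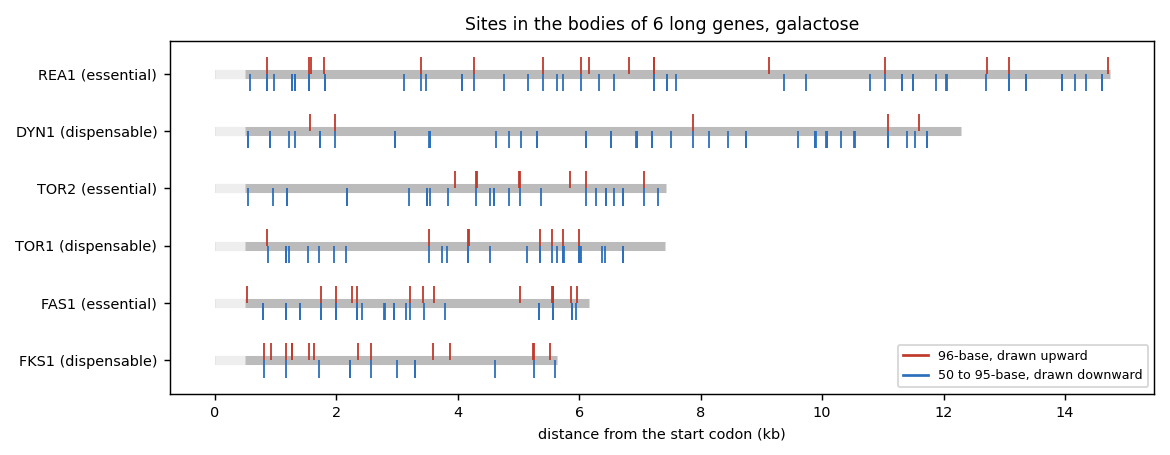
Galactose sites along 6 long genes, with the distance from the start codon in kb on the horizontal axis. Red ticks above each grey gene bar are 96-base sites and blue ticks below it are 50 to 95-base sites; the pale first 500 bp were not counted. REA1 carries 17 red ticks from end to end and DYN1 carries 5.

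Paralogues of unlike importance gave no uniform order. TOR2, the essential kinase of the cell-polarity and growth complex, and TOR1, its dispensable relative in nutrient signalling, both held 8 sites from 96-base intervals in galactose. The checkpoint kinase MEC1 held 3 and its dispensable relative TEL1 held 5. ACC1, the essential cytosolic acetyl-CoA carboxylase, had 7, and HFA1, its mitochondrial counterpart, had 8. BRR2, an essential RNA helicase of the spliceosome, had 7, and SLH1, a related helicase that acts on stalled ribosomes, had 5. In each of these 4 pairs the interval of the ratio included 1.

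Among dispensable paralogues, the Ras inhibitors IRA1 and IRA2 held 7 and 13 sites from 96-base intervals. MLP1 and MLP2, filament proteins of the nuclear basket, held 3 and 1. The ubiquitin ligases UBR1, which recognises destabilising first residues, and UBR2 held 5 and 4. FKS1, the main catalytic subunit of the beta-glucan synthase of the cell wall, held 14, its paralogue GSC2 held 7 and FKS3 held 13. The interval of the ratio included 1 for IRA1 over IRA2, MLP1 over MLP2, UBR1 over UBR2, FKS1 over FKS3 and FKS1 over GSC2, for instance 2.02 (0.764 to 5.92) in the last of these. GSC2 and FKS3 were not compared.

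The highest 96-base densities in galactose were in FKS1 at 2.73 per kb (1.49 to 4.58), FKS3 at 2.68 (1.42 to 4.58) and FAS1 at 2.48 (1.35 to 4.15). FAS1, an essential gene, encodes the beta subunit of fatty acid synthase. DCK1, related to guanine nucleotide exchange factors of the DOCK family, followed at 1.89 per kb and RIM15, a kinase for entry into quiescence, at 1.87 per kb. FKS1, FKS3 and FAS1 were the 3 genes of the 57 whose intervals lay wholly above the pooled density of 0.984, and 0 genes had an interval wholly below it. With a median of 5 sites a gene, an interval wholly below was hard to reach: BNI1, with 1 site, had an upper bound of 1.04. The share of all tested genes with such intervals was not computed, so the count says nothing particular to long genes. These genes were picked out by their own counts, so their rank carries no test.

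The 5 lowest were all dispensable genes: the formin BNI1 with 1 site (0.186 per kb), MLP2 with 1 (0.220), BPH1, a BEACH-domain protein, with 2 (0.333), NUM1, the cortical anchor of dynein, with 3 (0.387), and ECM29, a proteasome-associated protein, with 2 (0.392). Of the 14 genes with the highest density, 5 were essential and 9 dispensable. Of the 14 with the lowest, 4 were essential, 8 were dispensable and 2 had no call. All 57 ranked genes comprise 23 essential, 30 dispensable and 4 without a call.

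**Figure D3:**
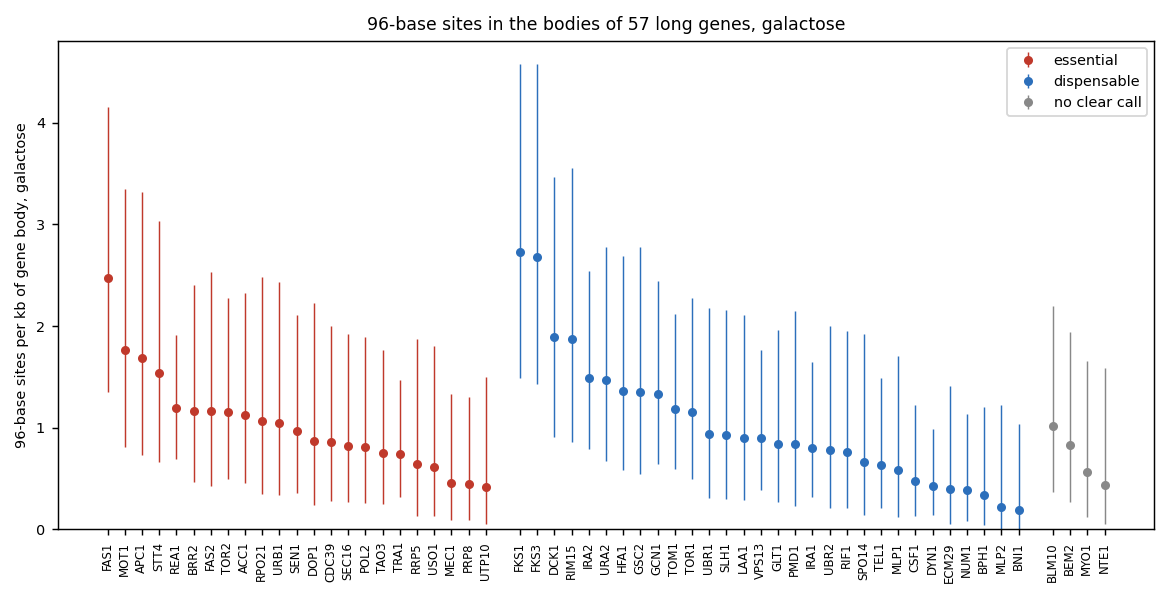
Galactose 96-base sites per kb of body for each of the 57 long genes outside the Y' family, sorted within the essential (23), dispensable (30) and no clear call (4) sets. Bars are exact Poisson 95% intervals; the essential set runs from 0.416 to 2.48 per kb and the dispensable set from 0.186 to 2.73 per kb.

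TRA1, TOM1 and VPS13 complete the 5 longest genes. TRA1, the scaffold shared by the SAGA and NuA4 acetyltransferase complexes and essential, held 8 sites from 96-base intervals in galactose (0.745 per kb). TOM1, a dispensable ubiquitin ligase, held 11 (1.18 per kb), and VPS13, a dispensable lipid-transfer protein of membrane contacts, held 8 (0.895 per kb).

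In the 50 to 95-base class STT4, an essential phosphatidylinositol kinase of the plasma membrane, ranked first with 33 sites, 6.34 per kb (4.37 to 8.91). FAS1 followed with 5.48 per kb, BRR2 with 5.17, GLT1, the glutamate synthase, with 5.05, and MLP1 with 4.88. STT4 was the only one of the 57 whose interval lay above the pooled 3.85 per kb, and SEC16, USO1 and PMD1 lay below it, at 1.81, 2.05 and 1.47 per kb. The share of all tested genes with such intervals was not computed for this class either. SEC16 and USO1 are essential genes of vesicle traffic, and PMD1 is a dispensable repressor of sporulation genes.

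By density over all lengths in dextrose, RPO21, MOT1, BNI1, URA2 and LAA1 ranked first. RPO21, the largest subunit of RNA polymerase II, had 7 sites or 1.49 per kb, MOT1, which removes the TATA-binding protein from DNA, 7 or 1.37 per kb, and BNI1 7 or 1.31 per kb. URA2, the first enzyme of pyrimidine synthesis, had 8 or 1.30 per kb, and LAA1, a clathrin adaptor partner, 7 or 1.26 per kb. REA1, the longest gene, had the most sites, 11, or 0.773 per kb. Over the 57 genes, galactose 96-base against galactose 50 to 95-base density had a Pearson r of 0.0679 and a Spearman rho of 0.0426. Galactose against dextrose density of the 50 to 95-base class had an r of 0.147 and a rho of 0.205. The points share their libraries and gene bodies, and most counts are small.

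By function, the 3 glucan synthase genes pooled to 34 sites from 96-base intervals in galactose, 2.24 per kb (1.55 to 3.13). The 6 enzymes of fatty acid, pyrimidine and nitrogen metabolism (3 essential) had 49, 1.40 per kb (1.04 to 1.85). The 4 ribosome assembly genes, all essential, had 27, 0.946 per kb, and the 5 transcription, replication and chromatin genes (4 essential) had 28, 1.04 per kb. The group of DYN1, NUM1, BNI1 and MYO1, which act in dynein function, the cortex and cytokinesis, had 12, 0.398 per kb (0.205 to 0.695), and the pair MLP1 and MLP2 had 4, 0.414 per kb. The PI3-kinase-like family, with the kinases MEC1, TEL1, TOR1 and TOR2 and the scaffold TRA1, had 32, 0.820 per kb, the 4 splicing and RNA processing genes 21, 0.863 per kb, and the 5 ubiquitin and proteasome genes 30, 1.01 per kb. For the 50 to 95-base class the same groups lay closer together, from 3.44 per kb in the ubiquitin and proteasome genes to 4.65 in MLP1 and MLP2. The glucan synthases had 3.62, the metabolic enzymes 4.35 and the dynein and cortex group 3.98.

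Long genes outside the Y' family held fewer 96-base sites per kb than shorter genes in galactose, and their 50 to 95-base density did not differ from that of shorter genes beyond counting error. In galactose the 57 genes outside the Y' family stood at 0.984 sites per kb against 1.33 in the 3094 other genes of at least 1000 bp (median of single genes 0.870 against 1.10), a ratio of 0.739 (0.661 to 0.823). The 50 to 95-base class gave 3.85 against 3.74 per kb, a ratio of 1.03 (0.973 to 1.09). Most of the gap lay with genes below 3000 bp: the 96-base density was 0.984 in the long genes, 0.995 in genes from 3000 to under 5000 bp, 1.30 from 2000 to under 3000 bp and 1.57 from 1000 to under 2000 bp. Against genes from 3000 to under 5000 bp the ratio was 0.989 (0.875 to 1.11). In dextrose the 50 to 95-base class was denser in the long genes, 0.742 against 0.633 per kb in other genes, a ratio of 1.17 (1.03 to 1.33). Both 50 to 95-base results turned on the Y' genes: with all 66 genes the ratio was 0.913 (0.863 to 0.964) in galactose and 1.04 (0.914 to 1.18) in dextrose. The other genes were not trimmed in the same way. Of the 3094, 192 held no site of any length in galactose and stayed in the comparison. How far this trimming on one side raised the ratios was not tested.

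**Figure D4:**
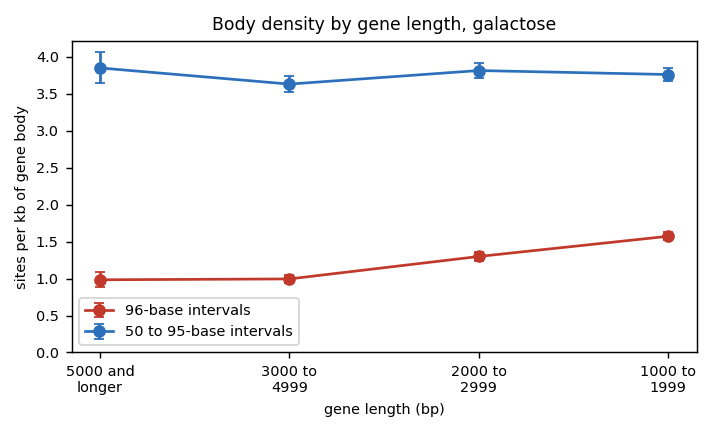
Galactose sites per kb of gene body by gene length class, with exact Poisson 95% intervals, for the 57 long genes outside the Y' family and the 3 length classes of other genes. The 96-base density is 0.984 in the longest class and 1.57 in the shortest, and the 50 to 95-base density stays between 3.63 and 3.85.

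Within the long genes the 96-base sites of galactose were denser near both ends. Within 500 bp of either end of the gene they stood at 1.93 per kb in galactose, against 0.807 per kb at 500 to 1000 bp, 0.965 at 1000 to 2000 bp, 0.801 at 2000 to 3000 bp, 1.00 at 3000 to 4000 bp and 0.883 deeper still. Past the first 500 bp the interior was therefore flat within its counting intervals. The 50 to 95-base density in galactose ran from 3.65 to 4.07 per kb over the same distances. Dextrose had 1 site from 96-base intervals within 500 bp of an end, 0.0175 per kb, and 5 at 500 to 1000 bp, 0.0877 per kb, too few to set a profile beside that of galactose. Near the ends the long genes exceeded genes from 3000 to under 5000 bp, at 1.93 against 1.39 per kb of 96-base sites, a ratio of 1.39 (1.12 to 1.71), and at 1000 to 2000 bp from the nearer end the ratio was 1.04 (0.841 to 1.28).

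When each body was cut into 10 equal parts, the last held 64 of the 350 sites from 96-base intervals, 18.3% (14.4% to 22.7%), 25 in essential and 36 in dispensable genes, while each of the others held 24 to 37. Along the gene the 96-base density in galactose was 5.44 per kb in the 500 bp upstream, 1.75 in the first 500 bp, 0.886 in the mid-body, 2.11 in the last 500 bp and 1.68 in the 500 bp downstream. Other genes of at least 1000 bp also peaked upstream, with 3.48, 1.79, 1.15, 1.67 and 2.51 per kb through the same parts. The 50 to 95-base density of the long genes was 5.02, 4.04, 3.83, 4.11 and 3.75 per kb, and in dextrose 0.737, 0.526, 0.736, 0.807 and 0.561.

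The upstream peak leaned on 1 gene. PMD1 (chromosome V, 425188 to 430449, minus strand) had 54 of the 155 upstream sites from 96-base intervals, and the nearest annotated RNA polymerase III gene, SNR52 (chromosome V, 431129 to 431220), lies 680 bp from it. Without PMD1 the upstream density was 3.61 per kb, 3.66 times (2.90 to 4.58) the body density, against 5.53 times (4.55 to 6.70) with it. The essential over dispensable ratio upstream was 0.539 (0.369 to 0.776), from 43 against 104 sites, and 1.08 (0.704 to 1.66), from 43 against 50 sites, without PMD1. The tRNA rule does not cover other genes of RNA polymerase III. In its body PMD1 had 4 sites from 96-base intervals, 0.840 per kb, so the body comparisons above do not rest on it. The values that take in the first 500 bp of each gene were not recomputed without PMD1. These are the 1.75 per kb of that part, the 1.93 per kb near gene ends and its ratio of 1.39 to shorter genes.

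**Figure D5:**
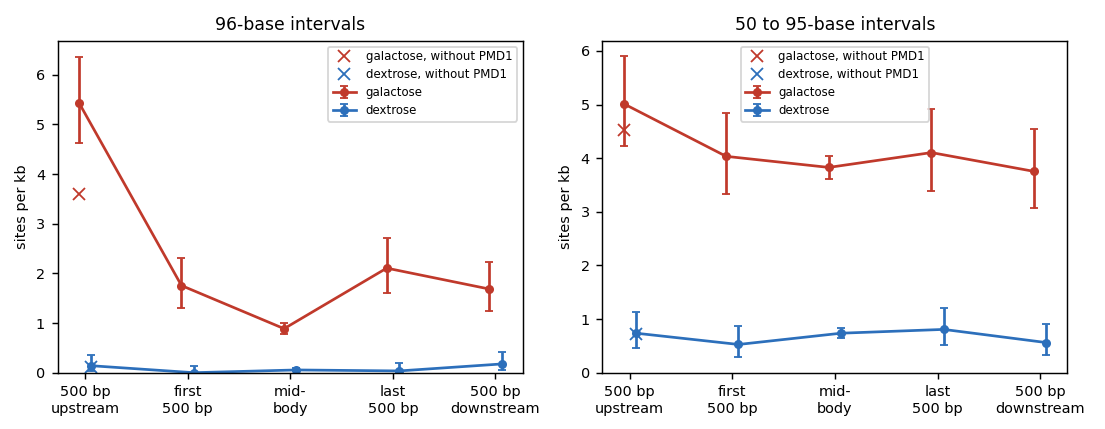
Sites per kb in 5 parts of the 57 long genes outside the Y' family, from 500 bp upstream to 500 bp downstream, for galactose (red) and dextrose (blue), with exact Poisson 95% intervals. Crosses leave out PMD1; the upstream value for 96-base intervals in galactose is then 3.61 in place of 5.44 per kb, and the 50 to 95-base value upstream in galactose is 4.54 in place of 5.02 per kb, against 3.83 in the mid-body.

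In the long genes the sense share of 96-base sites lay below 50%, with an interval that included it. Of the 350 galactose sites from 96-base intervals 165 were in the sense direction, 47.1% (41.8% to 52.5%), with 67 of 146 in essential and 87 of 188 in dispensable genes, and in other genes the share was 47.0% (45.8% to 48.3%), wholly below 50%. Of the 50 to 95-base sites 51.2% (48.6% to 53.9%) were sense.

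In 500 bp windows along the long genes the count of 96-base sites had a variance of 1.24 times its mean, and 66.3% of 685 windows held none. The fullest window was in FAS1 (chromosome XI, 106171 to 106670, 5500 to 6000 bp into the gene), with 5 sites. In the 50 to 95-base class the fullest lay in FAS2 (chromosome XVI, 111652 to 112151, 3000 to 3500 bp into the gene), the alpha subunit of fatty acid synthase, with 11 sites.

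The sites in the long genes had a smaller share of 96-base intervals than the whole libraries, and so did those in other genes. In galactose 96-base intervals gave 20.3% (18.5% to 22.3%) of the sites in the long genes, against 26.0% in other genes and 48.8% of all nuclear sites. The 50 to 95-base intervals gave 79.6% in the long genes, 73.1% in other genes and 43.8% of all nuclear sites. In dextrose the 96-base shares were 6.62% (4.03% to 10.1%) in the long genes, 8.85% in other genes and 25.8% in the library. Site counts in galactose were 18.4 times (11.6 to 31.0) those in dextrose for the 96-base class in the long genes, against 21.1 times in other genes and 25.7 times in the whole library. For the 50 to 95-base class they were 5.19 times (4.55 to 5.94) in the long genes, 5.92 times in other genes and 8.46 times in the whole library. The libraries differ in depth, 152129 against 11208 sites, and site counts were not scaled.

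In the long genes 1882 galactose intervals of 50 to 95 bases had 1370 distinct 5′ ends and 1880 distinct 3′ ends. In the 50 to 95-base class of galactose 65 plus-strand sites had a minus-strand site 3 bp further on, 50 had one 4 bp on and 46 had one 5 bp on, against 3 at 1 bp and 6 at 2 bp, among 693 plus-strand and 677 minus-strand sites. For the 96-base class the counts at these 5 distances were 0 or 1. In the whole galactose library the 50 to 95-base class had 2634, 2751 and 1859 such pairs at 3, 4 and 5 bp, against 632 at 1 bp and 614 at 2 bp. The 96-base class of that library had 6718 pairs at 4 bp, against 2444 to 3033 at each other distance from 1 to 8 bp.

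Of the 264 dextrose sites from 50 to 95-base intervals in the long genes, 144 (54.5%, 48.3% to 60.7%) lay at positions also found in galactose at any interval length, and so did 54.6% of that class in the whole dextrose library. For 96-base sites the shares were 1 of 19 (5.26%, 0.133% to 26.0%) and 64.8%. Lengths of 54, 55, 78 or 79 bases made up 61.4% of the 50 to 95-base intervals of dextrose in the long genes and 17.0% of those of galactose. In the whole libraries the shares were 57.5% and 13.4%. What marks the 5′ ends of the 50 to 95-base class was not tested.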

How the data were processed

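Insertion libraries were made, per the labels' protocols, by MseI digestion, adaptor ligation, BglII digestion and PCR from the SSB site. The submitters' processing notes name Picard 3.4.0, bedtools 2.31.1, SAMtools 1.22, BWA 0.7.19 and Trimmomatic 0.39, with the R64 build. The deposited files state in their names that duplicates were removed. They list read intervals with strand and a mapping score, which the authors left between 30 and 60. A 96-base position therefore counts once however many cells carry it. In the 50 to 95-base class up to 7 galactose intervals shared a 5′ end in the long genes. Positions and genes (RefSeq table, R64) are 1-based, and strand came from systematic names. Sites, densities and intervals were computed in Python 3.11.15 with SciPy 1.17.1. The ratio was checked on simulated sites, drawn independently at a common rate within each gene set. Such sites have no spread in rate between genes, so the check says nothing about that spread. Viability and function lists were written from general knowledge. Members and lists were chosen with earlier results of these data known. Genes named were the 5 longest, the 5 highest and lowest in 96-base galactose density, the 5 highest in 50 to 95-base galactose and in dextrose density, and paralogue pairs; any other was named after its values were seen. Depth was 152129 galactose and 11208 dextrose sites. Alternatives included 3′ ends, merged sites, read counts, other gene limits and leaving out genes.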

Additional observations from a re-analysis of the deposited data

How the results depend on the processing

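Over 124 alternatives, the 50 for the essential over dispensable ratio and the 10 for the sense share stayed inside the 95% counting intervals of the values reported, as did 53 of 64 for the densities. Some of these could not move. Each 96-base site in the long genes came from 1 interval with a mapping score of 60, so read counts and that score filter changed nothing. Leaving out the Y' genes, with 0 sites, could not change the sense share. The dextrose 96-base ratios were held against a wide interval, 0.303 to 2.73. The ratio ranged from 0.978 to 1.12 (galactose, 96 bases), 1.00 to 1.11 (galactose, 50 to 95 bases), 0.806 to 1.25 (dextrose, 96 bases) and 0.711 to 0.947 (dextrose, 50 to 95 bases). With 3′ ends or with read counts the galactose 50 to 95-base ratio was 1.11, with a lower bound of 1.01 in both cases, so its interval no longer included 1. These counts are nearly the same, and that interval may be too narrow. Without the Y' genes the galactose density was 0.984 per kb for 96 bases and 3.85 for 50 to 95 bases. In galactose the 50 to 95-base density moved to 4.68 with 3′ ends, 4.69 with read counts, 2.73 with sites within 5 bp merged, 3.89 for genes of at least 6000 bp and 0.835 for positions with at least 2 reads. In dextrose that density moved to 0.763 for genes of at least 6000 bp and 0.0299 with at least 2 reads. Leaving out lengths of 54, 55, 78 and 79 bases, chosen after seeing the data, gave 2.85 in galactose and 0.262 in dextrose; the cause was not tested. No paired analysis was possible because each medium had 1 insertion library. Dextrose depth limits the 96-base comparison, with 19 sites over all members.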
